A study of Mus musculus with 6 samples.

Results

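RNA levels of 39 genes of meiotic recombination and telomere attachment were compared between KO and WT mouse testes. The genes were taken by symbol from the deposited count table, which lists 54532 genes, and each symbol was found once. They were ordered by role: 5 genes of break formation, 3 of hotspot marking, 5 of break sensing and end processing, 11 of strand exchange, 9 of crossover formation, 3 helicases that limit crossovers and 3 of telomere attachment. All 39 passed the low-count filter that left 19320 genes for testing.

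The KO group held 3 libraries of whole testis lacking 1700052I22Rik, a long non-coding RNA gene removed by knockout, and the WT group held 3 libraries of wild-type testis. The sources used here do not give the kind of allele, the strain or age of the mice, or whether replicates were separate animals. The p-values therefore refer to the spread between these libraries, which may be technical. The library totals ran from 17635045 to 17957707 counts in KO and from 17794450 to 18117593 in WT. The targeted transcript had 0, 0 and 0 counts in KO 1 to KO 3, against 185, 175 and 218 in WT 1 to WT 3. The 39 genes together held between 0.104% and 0.117% of the counts of a library.

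In early meiotic prophase the topoisomerase-like protein SPO11 cuts both strands of the DNA at sites that PRDM9 has marked, and the cuts are resected, bound by strand-exchange proteins such as DMC1, and repaired on the homologous chromosome. A minority of the repair events mature into crossovers, which hold homologs together until the first division. Meanwhile a complex of MAJIN, TERB1 and TERB2 joins the chromosome ends to the inner nuclear membrane, and the resulting chromosome movements bring homologs together.

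None of the 39 genes was called in KO against WT. By edgeR's quasi-likelihood F-test, adjusted by Benjamini-Hochberg over all 19320 genes, their adjusted p lay between 0.965 and 0.997, and over all genes 0.00518% were called at an adjusted p under 0.05, which was the target alone. At an unadjusted p under 0.05 there were 0 of the 39, against 4.63% of all genes. The 39 log2 fold changes (KO over WT) ran from -0.35 for Mnd1 to 0.26 for Rec114, with 22 above 0 and 17 below 0 and a median of 0.04, beside a median of -0.0025 over all genes tested. The value of Rec114 rested on WT 3, without which it was -0.02. The CPM ranges of the genotypes did not overlap for 3 genes, Swi5, Exo1 and Cntd1, each lower in KO, which is 7.69% of the list against 9.32% of all genes tested. The 95% interval of the fold change lay within 1.5-fold in either direction for 34 of the 39 genes (87.2%), against 61.6% of all genes tested. Mei1, Mei4, Rec114, Mnd1 and Spata22 had intervals reaching beyond 1.5-fold. All 39 lay within 2-fold, as did 16335 of the 19320 genes tested. DESeq2 likewise called 0 of the 39 genes, with 0 at an unadjusted p under 0.05, against 3.50% of all genes. With 1 library left out, the count at an unadjusted p under 0.05 became 2 without KO 1 (Nbn and Swi5), against 5.42% of all genes. It was 1 without KO 2 (Mnd1), against 7.34%, and 2 without WT 1 (Mei1 and Terb1), against 7.14%. The median log2 fold change was -0.0095 without KO 2 and -0.0026 without WT 3. In bulk tissue, fewer spermatocytes and less RNA per spermatocyte cannot be told apart.

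**Figure D1:**
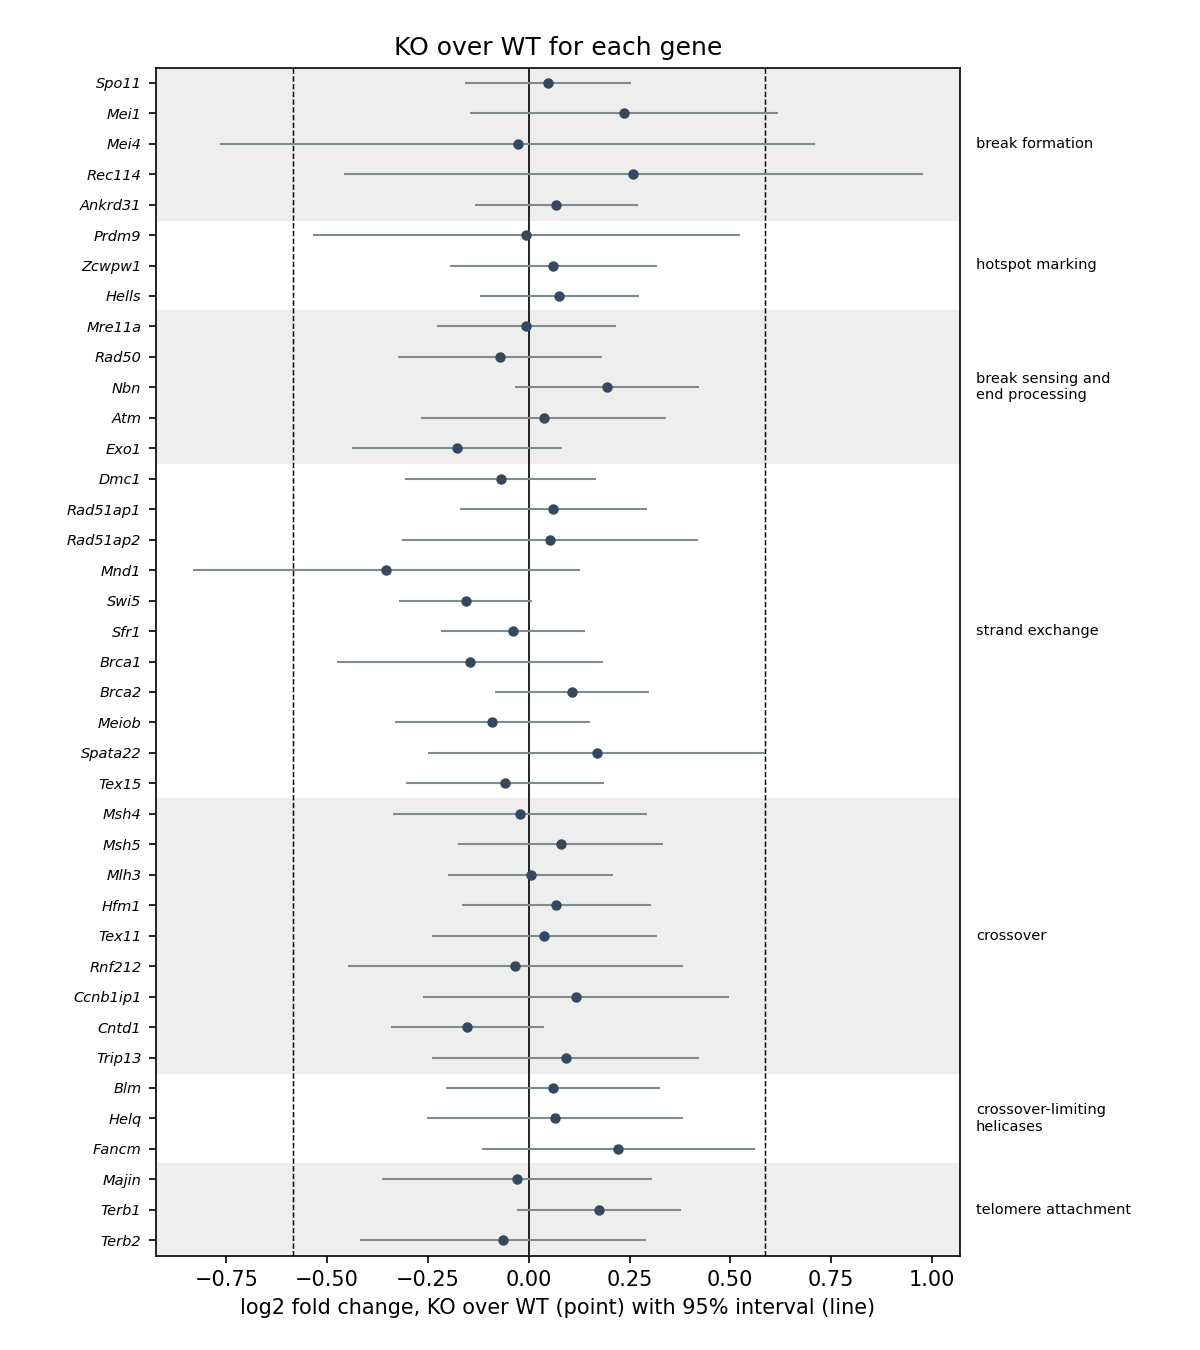
Log2 fold change of KO over WT (horizontal axis) for each of the 39 genes, grouped by role; points are estimates from edgeR, lines their 95% intervals, and the dashed lines mark 1.5-fold. Every interval crosses 0, and the widest belong to scarce genes such as Rec114 and Mei4.

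Levels were compared between genes as CPM (counts scaled to library size with TMM factors) per kilobase of exon, using the deposited gene lengths. For 37 of the 39 genes these lengths cover the exons of all annotated transcripts, of which Swi5 has 7 and Sfr1 2. The order between genes therefore depends partly on the annotation. On this scale the partners Sfr1 and Swi5 stood highest, at 36.8 and 23.6 CPM per kb in KO and 37.8 and 26.3 in WT. Spo11 followed with 16.7 CPM per kb in KO and 16.2 in WT. Mei4 was lowest, at 0.242 CPM per kb in KO and 0.246 in WT, and in WT the span from highest to lowest was 153-fold. Fancm, Prdm9, Atm, Rec114 and Brca1 were the other 5 genes under 1.5 CPM per kb in WT. Neighbours in the middle of this order, such as Tex11 and Mnd1 or Zcwpw1 and Blm, differed by less than their SDs in WT.

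**Figure D2:**
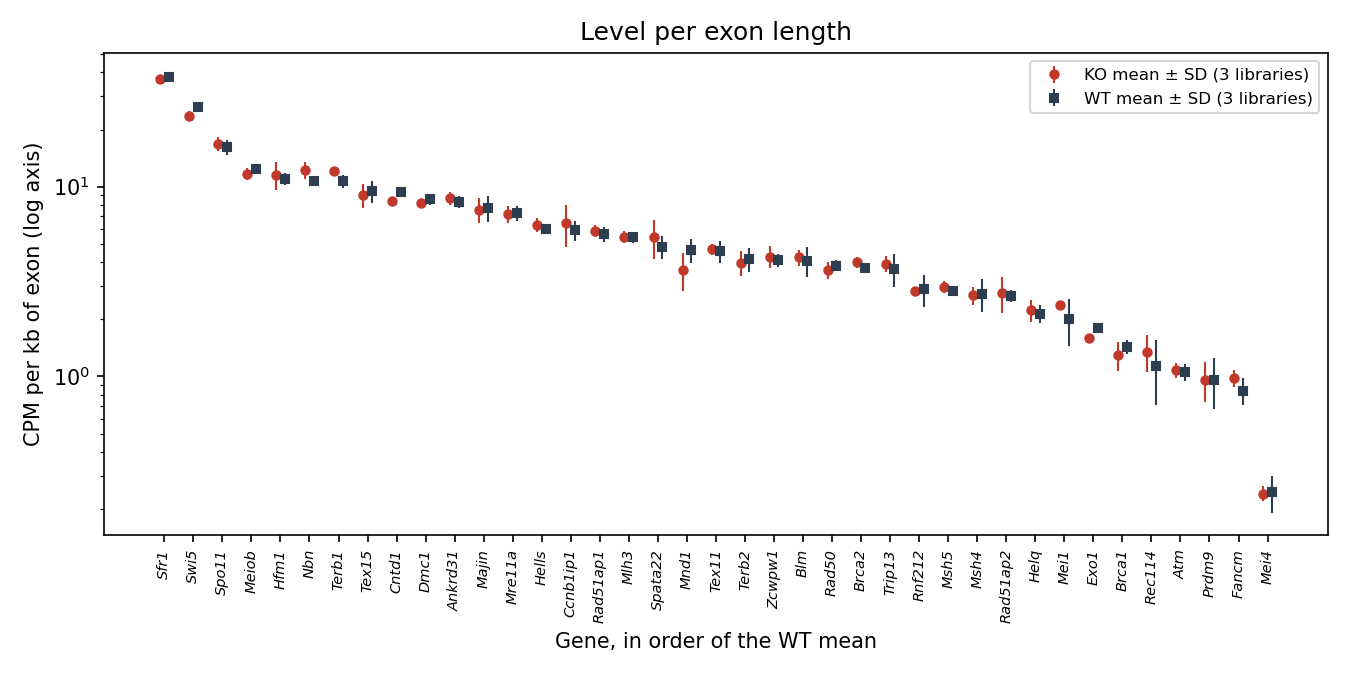
Mean level per kilobase of exon (vertical log axis, CPM per kb) with SD over 3 libraries, KO circles beside WT squares, in the order of the WT mean. Sfr1 and Swi5 lead in both genotypes and Mei4 stands below the rest.

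Upstream sequence was taken from RefSeq's promoter table for GRCm38.p6, in which 30 of the 39 genes matched; Spo11, Rad50, Nbn, Exo1, Meiob, Tex15, Tex11, Majin and Terb2 did not. The 250 bases before the transcription start nearest the deposited 5′ end of the gene were searched on both strands for CNCCTCAG. This is the motif bound by STRA8, which switches on meiotic prophase genes in mouse. The same windows were also searched for AACNGNC, which holds the AACNG core bound by MYB factors such as MYBL1, a regulator of pachytene genes. The start used lay furthest from the deposited 5′ end for Mei1 (12480 bases), Ccnb1ip1 (12004), Rec114 (2405) and Msh4 (1247). CNCCTCAG was found in 4 of the 30 windows (13.3%), against 7.05% of 17866 windows of the same length upstream of genes with a count in these libraries. AACNGNC was found in 8 of the 30 (26.7%), against 28.3% of the same 17866. A match is a description of the letters only.

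The 120 bases before the start are printed 5′ to 3′ on the gene's strand for the 4 genes whose window holds CNCCTCAG, with matches to CNCCTCAG or AACNGNC on either strand in capitals and no overlap between them. Prdm9 encodes the hotspot-marking factor, Rad51ap1 a cofactor of strand exchange, and Msh5 and Hfm1 a crossover clamp subunit and a crossover helicase. The stretches are chr17:15564355-15564474, chr6:126939588-126939707, chr17:35046623-35046742 and chr5:106925891-106926010, all on the minus strand. The Hfm1 start lies 431 bases and the Msh5 start 123 bases from the deposited 5′ end of the gene.
Prdm9: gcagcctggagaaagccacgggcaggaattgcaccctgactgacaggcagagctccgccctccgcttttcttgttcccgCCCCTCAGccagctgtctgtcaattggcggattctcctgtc
Rad51ap1: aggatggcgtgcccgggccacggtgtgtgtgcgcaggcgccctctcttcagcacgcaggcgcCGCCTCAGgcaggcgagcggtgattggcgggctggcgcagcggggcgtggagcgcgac
Msh5: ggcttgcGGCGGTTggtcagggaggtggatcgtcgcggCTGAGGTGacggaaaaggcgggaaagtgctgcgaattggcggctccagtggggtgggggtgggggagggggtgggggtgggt
Hfm1: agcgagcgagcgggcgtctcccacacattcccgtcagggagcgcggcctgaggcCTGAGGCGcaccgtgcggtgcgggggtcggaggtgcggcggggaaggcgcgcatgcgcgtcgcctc

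The same stretch is shown for Swi5, Terb1 and Cntd1, which had the smallest p among the genes with a window, at chr2:32288070-32288189 (minus strand), chr8:104509888-104510007 (minus strand) and chr11:101279083-101279202 (plus strand). The Cntd1 start lies 191 bases inside the deposited gene. AACNGNC occurs only in the stretch of Cntd1, at 2 places, and CNCCTCAG in none of these 3 windows.
Swi5: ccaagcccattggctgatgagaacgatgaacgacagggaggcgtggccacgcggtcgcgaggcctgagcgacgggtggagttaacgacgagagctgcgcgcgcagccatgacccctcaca
Terb1: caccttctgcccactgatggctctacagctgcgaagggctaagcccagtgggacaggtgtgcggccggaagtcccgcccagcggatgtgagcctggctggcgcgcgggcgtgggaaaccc
Cntd1: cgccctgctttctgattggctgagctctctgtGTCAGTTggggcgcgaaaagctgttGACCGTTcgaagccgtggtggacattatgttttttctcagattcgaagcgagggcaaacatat

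No gene of break formation passed the test, and 4 of the 5 log2 fold changes lay above 0, with a median of 0.07. Spo11 had 60.3, 71.4 and 65.3 CPM in KO 1 to KO 3, against 68.3, 57.1 and 65.1 CPM in WT 1 to WT 3 (log2 fold change 0.05, 95% interval -0.16 to 0.25). The genotypes overlapped, with the highest value in KO 2 and the lowest in WT 2. Its counts sum the annotated transcripts, so isoforms of Spo11 are not separated here. Ankrd31, encoding a scaffold that binds REC114, had 49.4, 57.2 and 56.0 CPM in KO and 55.1, 52.4 and 47.6 CPM in WT.

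Mei1, needed for break formation in mouse spermatocytes, had 10.5, 11.5 and 11.7 CPM in KO, against 12.5, 8.53 and 7.49 CPM in WT. The KO libraries sat close together while WT 1 was the highest and WT 3 the lowest of all 6. Its log2 fold change was 0.24 (95% interval -0.14 to 0.62), and it was 0.49 without WT 1 and 0.09 without WT 3. Rec114 and Mei4 encode partners in a complex that activates SPO11, and both were scarce. Rec114 had 1.69, 1.36 and 2.13 CPM in KO and 1.78, 1.73 and 0.826 CPM in WT, which is 24 to 38 reads in a KO library and 15 to 32 in a WT library. Of its 1277 exonic bases, 344 are shared with Nptn on the opposite strand, and since the strand setting is not given its reads are uncertain. Mei4 had 1.01, 1.08 and 0.898 CPM in KO, against 0.832, 0.947 and 1.27 CPM in WT. At these depths the intervals reached -0.46 to 0.98 for Rec114 and -0.76 to 0.71 for Mei4 on the log2 scale, so changes within them were not detectable. The log2 fold change of Rec114 was 0.26 with all libraries, 0.08 without KO 3 and -0.02 without WT 3.

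Hotspot marking showed no separation of the genotypes. Prdm9, the zinc-finger methyltransferase that places hotspots, had 3.04, 4.88 and 4.49 CPM in KO, against 3.88, 3.06 and 5.51 CPM in WT (log2 fold change -0.01, 95% interval -0.54 to 0.52). KO 1 and WT 2 were both near 3 CPM, and the highest value was in WT 3. Zcwpw1, a reader of the histone marks that PRDM9 writes, had 24.4 ± 3.19 CPM in KO and 23.4 ± 1.87 in WT (SD, n = 3 each). Hells, a chromatin remodeller that works with PRDM9, had 45.3 ± 3.79 CPM in KO and 43.0 ± 0.142 in WT. Its KO libraries lay on either side of the tight WT group, at 41.0, 47.0 and 47.9 CPM.

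**Figure D3:**
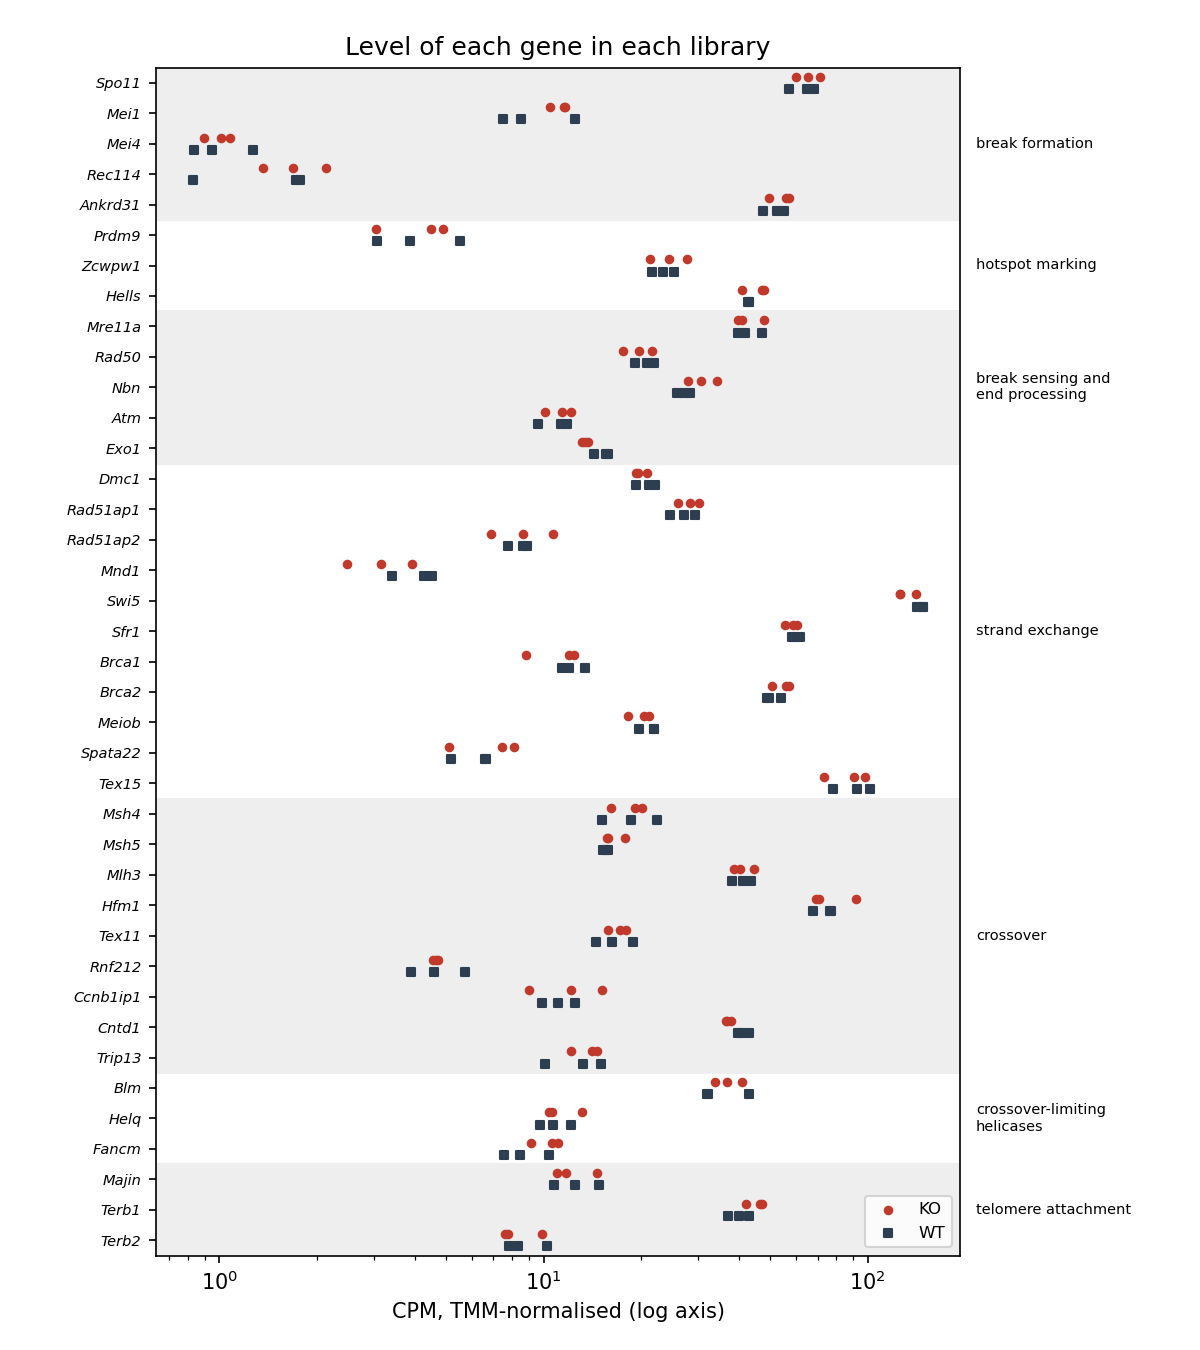
TMM-normalised CPM (horizontal log axis) of each gene in each library, KO circles above WT squares, with genes grouped by role. The genotypes are separate only for Exo1, Swi5 and Cntd1, and the gap for Swi5 is between KO 1 and WT 1.

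Among the genes that sense and process breaks, Exo1 and Nbn had the largest differences, in opposite directions, and neither passed. Exo1, a nuclease that resects break ends and also acts in crossover formation, had 13.2, 13.7 and 13.4 CPM in KO, against 14.3, 15.5 and 15.7 CPM in WT. All KO libraries were below all WT libraries (log2 fold change -0.18, 95% interval -0.44 to 0.08, adjusted p = 0.965 in edgeR). Nbn, encoding the regulatory subunit of the MRN complex that detects broken ends, had 27.9, 34.4 and 30.6 CPM in KO, against 28.3, 27.1 and 25.8 CPM in WT. Only KO 1 was below the highest WT library, and the log2 fold change was 0.19 (95% interval -0.03 to 0.42, adjusted p = 0.965 in edgeR). The means of the other MRN subunits lay within 1 SD of each other: Mre11a, the nuclease, had 42.7 ± 4.39 CPM in KO and 42.9 ± 3.88 in WT, and Rad50, the ATPase, had 19.6 ± 2.02 in KO and 20.6 ± 1.38 in WT (SD, n = 3 each). Atm, the kinase that answers breaks and limits their number, had 11.2 ± 1.03 CPM in KO and 10.9 ± 1.15 in WT. Mre11a shares 154 of 5927 exonic bases with Ankrd49 on the opposite strand.

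Strand exchange held the gene with the smallest p of the list, Swi5, at an unadjusted p of 0.0623 in edgeR. SWI5 and SFR1 form a complex that stimulates strand exchange. Swi5 had 141, 126 and 126 CPM in KO, against 142, 148 and 149 CPM in WT. KO 1 lay just below WT 1, so the separation rests on a gap of under 1 CPM. The fold change was 0.897 (95% interval 0.800 to 1.01). Sfr1 had 55.4, 60.5 and 58.6 CPM in KO and 61.6, 59.4 and 58.4 CPM in WT, and varied least of the 39 genes, with a coefficient of variation of 3.58% over the 6 libraries. Swi5 shares 98 of 5551 exonic bases with Golga2 on the opposite strand.

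Dmc1, the meiosis-specific recombinase, had 19.3, 19.6 and 20.8 CPM in KO, against 21.2, 19.3 and 22.1 CPM in WT (log2 fold change -0.07, 95% interval -0.31 to 0.17). Its values overlapped. Mnd1, a subunit of the MND1-HOP2 complex that helps DMC1 pair strands, had the lowest log2 fold change of the list at -0.35 (95% interval -0.83 to 0.13), and between -0.53 and -0.20 with 1 library left out. It was scarce, at 3.15, 3.91 and 2.47 CPM in KO and 4.27, 3.40 and 4.51 CPM in WT, and KO 2 stood above WT 2. The strand-exchange cofactor gene Rad51ap1 had 28.2 ± 2.14 CPM in KO and 27.0 ± 2.42 in WT, and Rad51ap2 had 8.74 ± 1.90 in KO and 8.43 ± 0.586 in WT (SD, n = 3 each).

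Loaders and single-strand binding factors were likewise not called. Brca2, which acts in loading strand-exchange proteins such as DMC1, had 54.6 ± 3.48 CPM in KO and 50.7 ± 2.69 in WT. Brca1, which acts earlier in homologous repair, had 8.83, 12.4 and 12.0 CPM in KO, against 13.4, 11.4 and 11.9 CPM in WT, with KO 1 apart from the other 5 libraries. MEIOB and SPATA22 form a heterodimer on single-stranded DNA. Meiob had 19.9 ± 1.48 CPM in KO and 21.2 ± 1.28 in WT, and Spata22 had 6.90 ± 1.57 in KO and 6.14 ± 0.833 in WT (SD, n = 3 each). Tex15, needed in mouse spermatocytes for loading of strand-exchange proteins such as DMC1, was among the more abundant genes at 73.4, 97.8 and 90.4 CPM in KO, against 102, 92.9 and 78.0 CPM in WT. Here KO 1 and WT 3 were the low libraries. The annotation places 80.5% of the exonic bases of Spata22 also in Gm49340 on the same strand, which had 2 reads in all 6 libraries together. The counting tool is not named, so how reads in the shared bases were counted is not known. The level of Spata22 is therefore uncertain.

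Crossover genes spanned both sides of 0, with 6 of 9 above it and a median log2 fold change of 0.04. MSH4 and MSH5 form the clamp that stabilises crossover intermediates. Msh4 had 16.1, 20.1 and 19.1 CPM in KO, against 22.4, 18.7 and 15.1 CPM in WT, so WT alone covered more than the whole KO range. Msh5 had 16.4 ± 1.17 CPM in KO and 15.6 ± 0.275 in WT (SD, n = 3 each). Mlh3, the endonuclease subunit that resolves crossovers, had 41.2 ± 3.04 CPM in KO and 41.0 ± 2.75 in WT, a log2 fold change of 0.0044 (95% interval -0.20 to 0.21). Hfm1, a helicase needed for crossovers, had 69.2, 91.9 and 70.5 CPM in KO, against 76.9, 76.3 and 67.6 CPM in WT. Its highest value came from KO 2, and the other KO libraries were within the WT range.

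Cntd1, a cyclin-like factor that trims crossover sites to their final number, had 36.6, 37.8 and 36.8 CPM in KO, against 40.8, 43.0 and 39.9 CPM in WT. All KO libraries were lower, the fold change was 0.900 (95% interval 0.789 to 1.03), and the difference did not pass (adjusted p = 0.965 in edgeR). Of its 4421 exonic bases, 3104 (70.2%) are shared with Becn1, an autophagy gene on the opposite strand with 8428 reads in the 6 libraries, so without the strand setting the reads of Cntd1 are uncertain. Rnf212 and Ccnb1ip1 encode ring-finger proteins that select crossover sites, acting for and against their stabilisation in mouse. Rnf212 had 4.64 ± 0.0858 CPM in KO and 4.75 ± 0.924 in WT, and Ccnb1ip1 had 12.1 ± 3.05 in KO and 11.1 ± 1.34 in WT (SD, n = 3 each). Ccnb1ip1 shares 233 of 1883 exonic bases with Rpph1 on the same strand, which had 0 reads, so some reads of Ccnb1ip1 are uncertain. Tex11, a crossover factor and the only X-linked gene of the 39, had 15.8, 17.2 and 18.0 CPM in KO, against 14.5, 18.9 and 16.2 CPM in WT. Trip13, an ATPase that removes HORMAD proteins from synapsed axes, had 13.6 ± 1.29 CPM in KO and 12.8 ± 2.46 in WT (SD, n = 3 each).

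The helicases that turn intermediates away from crossing over had small positive log2 fold changes in KO, 0.06 for Blm, 0.07 for Helq and 0.22 for Fancm, none of which passed. Blm, a RecQ helicase, had 33.9, 41.0 and 36.8 CPM in KO, against 43.1, 32.0 and 31.9 CPM in WT. The highest library was WT 1. Helq had 10.4, 13.1 and 10.6 CPM in KO, against 10.7, 12.1 and 9.74 CPM in WT. Fancm, of the Fanconi anaemia pathway, had 9.12, 11.1 and 10.6 CPM in KO, against 10.4, 8.47 and 7.54 CPM in WT, and the genotypes overlapped through WT 1. Its log2 fold change was 0.36 without WT 1 and 0.12 without WT 3, and was called in neither. With 1 library left out, the sign turned for Blm (-0.0095 without KO 2, -0.012 without WT 2 and -0.014 without WT 3) and for Helq (-0.04 without KO 2 and -0.0066 without WT 3).

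In the telomere attachment complex, neither Terb1 nor its partners passed. Terb1, whose protein binds the telomere protein TRF1, had 42.0, 46.4 and 47.0 CPM in KO, against 42.9, 36.9 and 40.1 CPM in WT. Only KO 1 was below the highest WT library, and the log2 fold change was 0.17 (95% interval -0.03 to 0.38, adjusted p = 0.965 in edgeR). Terb2, the link between TERB1 and MAJIN, had 7.60, 7.77 and 9.88 CPM in KO, against 8.32, 10.3 and 7.82 CPM in WT. Majin, the membrane anchor, had 14.6, 11.7 and 11.0 CPM in KO, against 10.8, 14.8 and 12.5 CPM in WT. The summed CPM of these 3 genes was 66.0 ± 1.85 in KO and 61.5 ± 0.926 in WT (SD, n = 3 each), most of it from Terb1.

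Balance between partners was compared as the ratio of their CPM per kb. Swi5 over Sfr1 was 0.644 ± 0.0702 in KO and 0.697 ± 0.0366 in WT, and Msh4 over Msh5 was 0.901 ± 0.104 in KO and 0.968 ± 0.205 in WT (SD, n = 3 each). For Meiob over Spata22 the ratio was 2.27 ± 0.726 in KO and 2.63 ± 0.492 in WT, and for Terb1 over Terb2 it was 3.06 ± 0.344 in KO and 2.61 ± 0.502 in WT. Mre11a over Rad50 stood at 1.99 ± 0.254 in KO and 1.89 ± 0.219 in WT, Majin over Terb2 at 1.95 ± 0.519 in KO and 1.86 ± 0.197 in WT, and Mei4 over Rec114 at 0.187 ± 0.0574 in KO and 0.263 ± 0.184 in WT. In each of these 7 pairs the genotype means differed by less than the larger of their SDs. The ratios with Spata22 and Rec114 rest on reads that are uncertain through shared exonic bases.

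Libraries of 1 genotype differed among themselves in many of these genes at once. KO 1 was the lowest KO library for 27 of the 39 genes (69.2%), against 33.2% of all genes tested, and KO 2 the highest for 23 (59.0%), against 36.8%. Among WT libraries, WT 1 was the highest for 18 genes (46.2%, against 34.9% of all genes) and WT 3 the lowest for 20 (51.3%, against 35.4%). Relative to the WT mean of each gene, the medians of the 39 on the log2 scale were -0.06, 0.07 and 0.04 in KO 1 to KO 3, against 0.05, 0.01 and -0.03 in WT 1 to WT 3. The range within KO was thus wider than the median difference between the genotypes, which was 0.04. Summed over the 39 genes, the level was 1055, 1173 and 1123 CPM in KO 1 to KO 3, against 1154, 1111 and 1077 CPM in WT 1 to WT 3. Genes of 1 library share its RNA and its depth, so these counts describe the libraries.

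**Figure D4:**
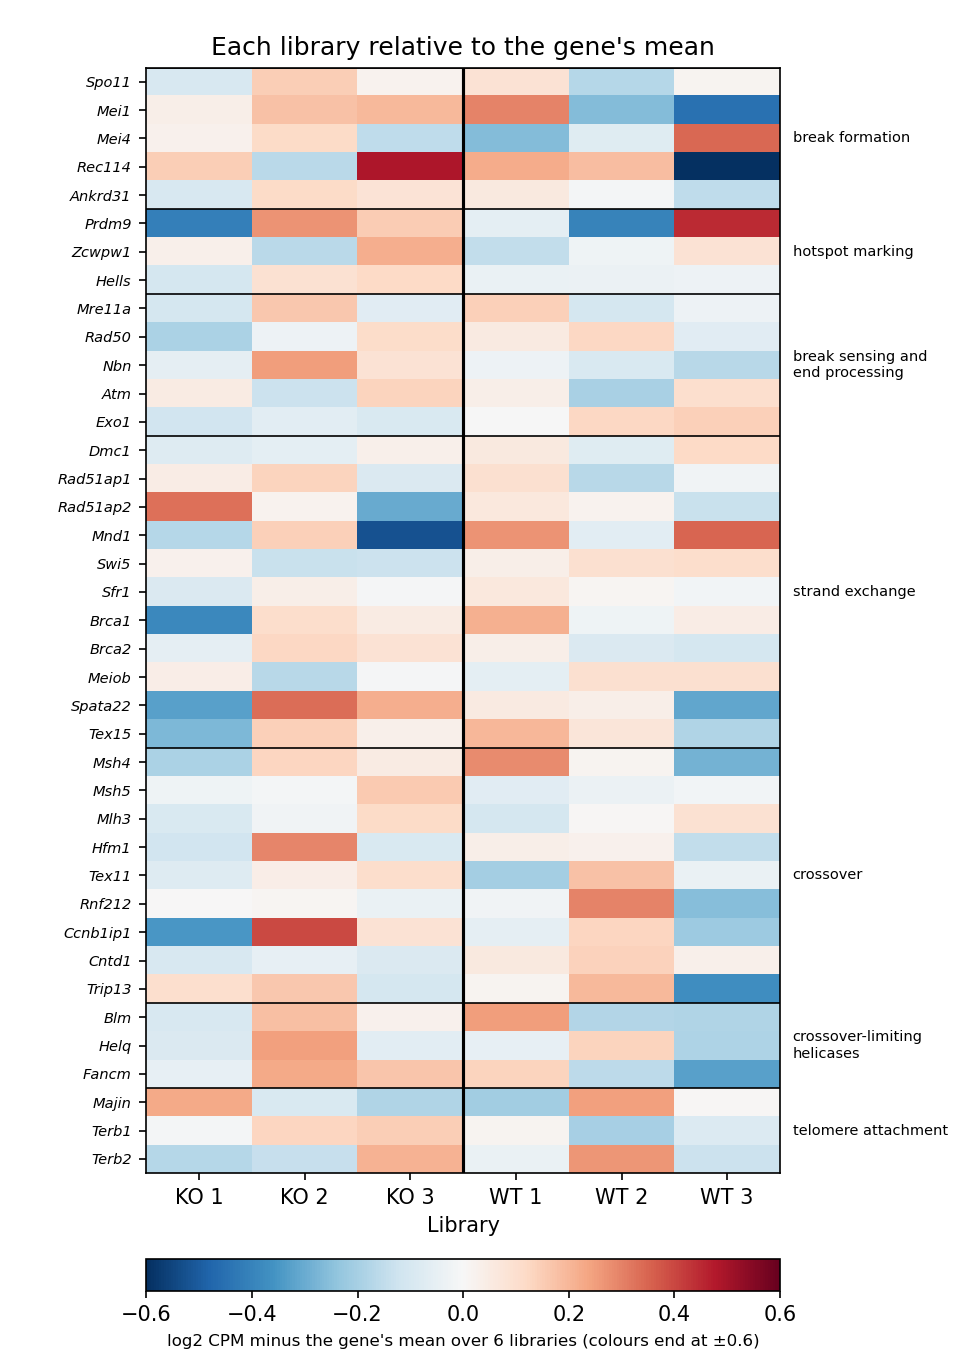
Log2 CPM of each gene in each library (columns, KO left and WT right) minus the gene's mean over the 6 libraries, with genes in rows grouped by role. Blue cells collect in KO 1 and WT 3 and red cells in KO 2 and WT 1.

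Markers of spermatocytes, in which most of these genes act, were at close levels in the genotypes: 17 genes such as Sycp1 and Sycp3 summed to 4283, 4413 and 4337 CPM in KO 1 to KO 3, against 4373, 4444 and 4206 CPM in WT 1 to WT 3, with a median log2 fold change of -0.0072 and 0 called. KO 1 was the lowest KO library and WT 3 the lowest WT library here too, while KO 2 and WT 2 were the highest. The largest part of the sum was Hspa2, with 1459, 1463 and 1378 CPM in KO and 1444, 1571 and 1484 CPM in WT. The 8 Leydig cell markers, mostly genes of steroid synthesis, summed to 688, 297 and 492 CPM in KO and 264, 928 and 730 CPM in WT, lowest in KO 2 and WT 1 (median log2 fold change -0.33). Median log2 fold changes of the other lists were -0.09 for 12 spermatogonial, 0.07 for 12 round spermatid, -0.0015 for 10 elongating spermatid, -0.16 for 12 Sertoli cell, -0.35 for 10 macrophage and -0.13 for 7 endothelial and blood genes, with 0 called in each. Of 8 epididymis genes, 2 had no count in any library and 1, Rnase10, was tested, at 0.01. The part of these cell types in the levels of the 39 genes was not tested.

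Other genes of the pathway were read from a list of recombination, checkpoint and telomere genes, of which 72 were in the table and 71 were tested. None was called. Their median log2 fold change was 0.0069, with 38 above 0 and 33 below, and edgeR gave 2 of the 71, H2afx and Terf1, an unadjusted p under 0.05, against 4.63% of all genes tested. The CPM ranges of the genotypes did not overlap for 7 of the 71 (9.86%), close to the 9.32% of all genes tested. H2afx, whose histone variant is phosphorylated around breaks, had 62.5, 55.3 and 49.7 CPM in KO, against 59.4, 79.7 and 63.5 CPM in WT (log2 fold change -0.27, 95% interval -0.52 to -0.03), and KO 1 lay within the WT range. Terf1, encoding the telomere protein TRF1 to which TERB1 binds, had 37.1, 36.7 and 39.2 CPM in KO, against 31.3, 34.6 and 31.1 CPM in WT (log2 fold change 0.22, 95% interval 0.02 to 0.42). Terf1 was one of the 7 whose genotypes did not overlap, with KO above WT. Next by p was AI481877, an older symbol of the crossover gene Shoc1, with 10.6, 11.4 and 14.3 CPM in KO, against 9.54, 10.3 and 10.2 CPM in WT (log2 fold change 0.27, 95% interval -0.04 to 0.59). The adjusted p of each of these 3 genes was 0.965 in edgeR.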

How the data were processed

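RNA of whole testis was sequenced, per the labels' protocols, from TRIzol extracts with a VAHTS mRNA-seq v2 kit. Reads were aligned with HISAT2 2.0.0 to mm10, per the submitters' processing notes. The authors deposited raw counts of reads by Ensembl gene, with gene lengths, per the file header; the sources used here do not name the counting tool, annotation release or strand setting. Columns were matched to samples by title. 0 columns were left unmatched.

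Counts were filtered with edgeR's filterByExpr (minimum count 10, total 15), scaled by TMM and tested with glmQLFit and glmQLFTest in edgeR 4.0.16 on all 6 libraries, with no covariate and Benjamini-Hochberg adjustment over 19320 genes at 0.05 (R 4.3.3, limma 3.58.1, DESeq2 1.42.0). Intervals are 95% intervals from the fit. The test was tested on simulated counts. Library totals, from 17635045 to 18117593, set the precision of scarce genes. The deposited length equalled the GENCODE M21 exon union for 37 of the 39 genes, and shared exons were read from that annotation. Alternatives were other scalings and filters, DESeq2, limma-voom with sample weights, the replicate number as a block, and libraries left out. All 39 genes are named; of the wider pathway list those with an unadjusted p under 0.05 are, or the 3 smallest. Marker lists covered spermatogonia, spermatocytes, round and elongating spermatids, Sertoli, Leydig and macrophage cells, endothelium and blood, and epididymis. The genes and lists were chosen with earlier results of these data known.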

Additional observations from a re-analysis of the deposited data

How the results depend on the processing

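In every setting run, 0 of the 39 genes were called. The count of these genes at an unadjusted p under 0.05 was 0 in edgeR with TMM and all 6 libraries, against 4.63% of all genes. It was 1 with library size alone (Swi5), against 4.68%, and 2 in limma-voom with sample weights (Swi5 and Terb1), against 8.69%. With WT 1 and KO 2 left out together it was 1 (Mei1), against 8.51%. With 1 library left out it was 0 to 2, against 2.48% to 7.34%. The median log2 fold change was -0.030 with WT 1 and KO 2 left out together. This pair was chosen because it stood apart in earlier results of these same data, and the cause was not tested. Over all genes, 50 were called with no low-count filter, 2 by DESeq2, 9 with WT 1 and KO 2 left out together and 1 to 3 with 1 library left out. For the wider list, the genes at an unadjusted p under 0.05 numbered 1 with no low-count filter, against 4.98% of all genes. They numbered 1 with WT 1 and KO 2 left out together, against 8.51% of all genes. With 1 library left out they numbered 0 to 3, against 2.48% to 7.34% of all genes. The replicate number as a block gave 0 of the 39 genes and 1 gene of the wider list at that p, against 4.45% of all genes, and changed no other call. Same-numbered libraries correlated in their deviations from the group means by -0.17, -0.03 and 0.11, and differently numbered ones by -0.17 to 0.19. These values show no pairing by number, but cannot exclude one, and the labels do not state any. The sign of the log2 fold change differed for 1 of the 39 genes with library size alone, 4 in limma-voom and 5 to 7 with 1 library left out. A mean of at least 5 CPM left 34 of the 39 genes. Depth limits Mei4 and Rec114 most.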
